A study of Mus musculus with 9 samples.

Results

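The genes that code for the proteins of the cytosolic ribosome were taken from the FPKM table by name. FPKM is the number of fragments per kilobase of transcript, scaled to the mapped fragments of the library, so it is a level per length. A gene was a member where its symbol had the form Rpl or Rps with a number, or was Rplp0, Rplp1, Rplp2 or Rpsa, where that symbol occurred once, and where its mean over the 9 libraries was at least 1 FPKM. This gave 53 members, 31 of the large and 22 of the small subunit, among 6965 genes tested of 15446 uniquely named rows. All 53 rows that matched by name passed the level limit, with Rpl32l just inside it at a mean of 1.03 FPKM and none outside. GENCODE annotates 49 of the members as protein coding and 4 (Rps3a2, Rps3a3, Rpl32l and Rpl6l) as processed pseudogenes, which are copies made from a spliced mRNA.

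The libraries came from ROC6, a murine oral squamous line that the series calls cancer cells in its design and premalignant in its title, grown in DMEM with serum. There were 3 libraries of the wild-type control line, 3 of CSMD3 knockout cells made with guide 1 and 3 of CSMD3 knockout cells made with guide 2. CSMD3 is a large membrane protein with CUB and sushi domains, and the series asks how its loss changes the behaviour of these cells. The design calls the knockouts clone 1 and clone 2, so the effect of a guide and that of a clone cannot be told apart, and both knockouts share 1 control line. The Csmd3 gene itself was not analysed here. Whether replicates were grown apart is not in the labels, and the p-values therefore rest on a spread between libraries that could be technical. The FPKM table holds no read counts, so depth is unknown. In 15441 of its 15446 uniquely named rows, and for all 53 members, the means of both knockouts lie either above or below that of the control, so a shared direction of the guides is a property of the rows and is not given as a result. The shares over all tested genes given below are likewise shares of such rows, not of all transcripts of the cells. Of 16 squamous markers 6 have a row, with Sfn and Itga6 above 1 FPKM and no row for Krt5, Krt14, Trp63 or Cdh1. A missing row does not show a missing transcript, as 30 of 77 listed core ribosomal protein genes have none either. The summed level of the 3 fibroblast markers with a row was 3.70 to 3.998 FPKM in the control, 8.81 to 12.2 with guide 1 and 13.8 to 14.6 with guide 2. That of the 6 squamous markers was 3.93 to 4.47 FPKM in control, 12.1 to 13.5 with guide 1 and 4.91 to 5.58 with guide 2. The 2 leukocyte markers with a row, of 7 listed, summed to 0.473 to 0.875, 1.196 to 1.54 and 1.81 to 2.67 FPKM. Endothelial, muscle and neural markers with a row summed to under 1 FPKM in every library. The part of such markers in the results below was not tested.

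The small ribosomal subunit binds the mRNA and reads its codons, and the large subunit joins the amino acids and releases the chain through an exit tunnel. Each protein is normally held once in its subunit, ribosomal RNA makes the catalytic core, and the mRNAs of these proteins are among the most abundant of a growing cell. Most of them begin with a run of C and T bases, the 5' terminal oligopyrimidine tract, through which mTOR signalling sets their translation. Free Rpl5 and Rpl11, which reach the ribosome together with the 5S RNA, can bind Mdm2 and so raise p53 protein.

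The promoter windows of members were searched for runs of C and T. RefSeq (GRCm38.p6) gave a transcription start for 40 of the 53 members, and a window from 50 bases before to 30 bases after it was searched on the sense strand for at least 8 C or T bases in a row. Such a run was found in 26 of the 40 members (65.0%), against 33.6% of all 27025 genes in that table. This counts a run anywhere in the window, also one that ends before the annotated start, as in Rpl22, Rps25 and Rpl5. A run that reached the start or lay beyond it was in 19 of 40 members (47.5%, against 14.1% of all genes), and a run that covered the start base itself in 13 of 40 (32.5%, against 4.59%). The first 4 windows below are shown for their long runs, and the other 4 belong to members that changed far and hold no run of that length. Runs of at least 8 are in capitals, each sequence reads 5' to 3' on the gene's own strand, and each is 80 bases long.
Rpl15 (chr14:18270957-18271036, minus strand): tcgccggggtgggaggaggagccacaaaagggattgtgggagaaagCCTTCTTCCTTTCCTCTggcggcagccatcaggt
Rpl35 (chr2:39005102-39005181, minus strand): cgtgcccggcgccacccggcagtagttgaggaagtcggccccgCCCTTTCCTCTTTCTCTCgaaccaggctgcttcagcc
Rpl27a (chr7:109519145-109519224, plus strand): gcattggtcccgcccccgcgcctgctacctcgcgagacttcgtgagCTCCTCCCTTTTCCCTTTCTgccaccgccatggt
Rps10 (chr17:27635215-27635294, minus strand): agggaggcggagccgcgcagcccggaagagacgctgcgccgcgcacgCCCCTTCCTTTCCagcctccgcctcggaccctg
Rplp0 (chr5:115559417-115559496, plus strand): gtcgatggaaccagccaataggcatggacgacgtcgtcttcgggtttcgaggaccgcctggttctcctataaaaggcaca
Rpl6 (chr5:121204451-121204530, plus strand): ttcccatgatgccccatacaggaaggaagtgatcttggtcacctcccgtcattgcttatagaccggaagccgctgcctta
Rpsa (chr9:120127716-120127795, plus strand): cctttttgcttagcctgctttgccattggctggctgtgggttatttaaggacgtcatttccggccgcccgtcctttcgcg
Rps28 (chr17:33824533-33824612, minus strand): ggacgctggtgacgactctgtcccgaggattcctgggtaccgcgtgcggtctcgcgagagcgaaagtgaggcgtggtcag
The longest run was 17 bases in Rpl15, 18 in Rpl35, 20 in Rpl27a and 13 in Rps10. It was 7 in Rplp0, 6 in Rpl6, 7 in Rpsa and 5 in Rps28. Of the 9 members with a window that were called lower for the mean of both guides, 5 also held a run. Its length was 20 bases in Rpl27a, 14 in Rps25, 10 in Rps15a, 10 in Rpl13 and 9 in Rpl5. The letters CTTTCC, made of pyrimidines and so able to lie within such a run, were in 11 of 40 member windows (27.5%) and in 4.49% of all. Over the wider window from 250 bases before to 50 after the start, searched on both strands, CCGGAA, the core of ETS factor motifs, was in 22 of 40 (55.0%) against 16.7%. In that window GGGCGG, an Sp1-type box, was in 57.5% against 38.2%, TATAAA in 15% against 15.7%, and CACGTG, the E-box that MYC binds, in 5% against 8.09%. AAGATGG, the YY1 motif, was in 15% against 7.28%. The absence of a match says only that these letters are not in the window.

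Ribosomal protein mRNAs were among the most abundant in every group. Members made up 3 of the 10, 9 of the 50 and 13 of the 100 genes with the highest mean FPKM, and their sum was 6.22% to 7.75% of all FPKM in a library. Rplp0, the base of the large subunit's stalk, was the highest member by the mean of all libraries and Rps2, at the mRNA entry of the small subunit, the next. In all 6 knockout libraries Rps2 was above Rplp0, with group means of 1287 against 1165 FPKM for guide 1 and 1351 against 1228 for guide 2. The lowest were the pseudogenes Rpl32l, Rps3a3 and Rps3a2. The table does not hold a row for every ribosomal protein. Of the 77 core genes listed for both subunits 47 have one, 27 of 46 for the large and 20 of 31 for the small, and the other 30 were not analysed here.

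Members moved in both directions in the knockouts, and a smaller share of them was called than of all tested genes with a row in this table. For the mean of both guides against control, 13 of 53 members were called higher and 15 lower (limma adjusted p under 0.05), with 25 not called. This is 28 of 53, against 81.1% of all tested genes (37.8% higher and 43.3% lower). The members' log2 fold changes ran from -0.73 (Rpl21) to 0.53 (Rps28), with a median of -0.055 against -0.084 over all tested genes. With guide 1, 6 members were higher and 15 lower, against 68.1% of all genes called (30.2% higher and 37.9% lower). With guide 2, 11 were higher and 12 lower, against 65.4% (31.9% higher and 33.5% lower). Members called with each guide were 3 higher (Rps28, Rpl7l1 and Rps2, against 22.6% of all genes) and 11 lower (against 26.2%). All 6 knockout libraries lay above all 3 controls for 6 members (24.7% of all genes) and below them for 9 (29.0%), and the groups overlapped for 38. Without guide 2 replicate 1, the mean of both guides gave 12 higher and 23 lower and guide 2 gave 8 higher and 20 lower. Without control replicate 1, the mean of both guides gave 8 higher and 16 lower, and with no filter on low values 7 higher and 13 lower. In bulk RNA, fewer cells of a type and less RNA per cell cannot be told apart.

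**Figure D1:**
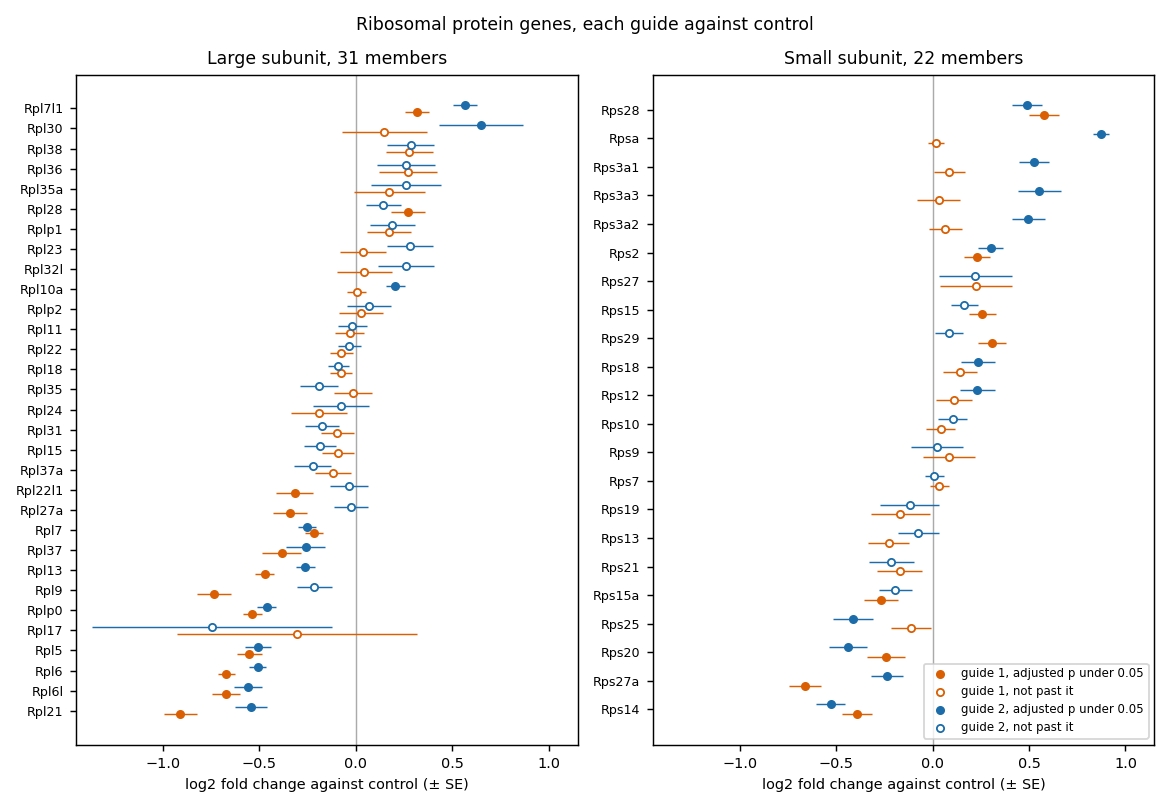
Log2 fold change against control (horizontal axis, ± SE from limma) of the 31 large and 22 small subunit members, with 1 colour per guide and filled points for a limma adjusted p under 0.05. Rpl21, Rpl6l, Rpl6, Rpl5 and Rplp0 have filled points left of 0 with both guides, and Rpsa is far right with guide 2 alone.

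The 6 called members with the lowest fold changes for the mean of both guides were of the large subunit. Rplp0, which anchors the acidic stalk proteins that recruit elongation factors, measured 1676, 1688 and 1704 FPKM in the 3 control libraries, 1214, 1135 and 1147 with guide 1 and 1313, 1188 and 1185 with guide 2. Every knockout library was below every control. Its log2 fold change was -0.54 ± 0.049 (SE) with guide 1 and -0.46 ± 0.049 with guide 2 (limma adjusted p = 4.1e-06 and 1.55e-05). Rpl6, a protein on the outer face of the large subunit, measured 512, 522 and 539 FPKM in control, 332, 332 and 323 with guide 1 and 389.6, 360.02 and 356 with guide 2. The groups did not overlap and guide 1 libraries were the lowest. The changes were -0.67 ± 0.045 and -0.51 ± 0.045 (limma adjusted p = 3.73e-07 and 3.75e-06). Rpl5, which carries the 5S RNA into the subunit, measured 297, 305 and 302 FPKM in control, 216, 204 and 196 with guide 1 and 237, 200.1 and 199.7 with guide 2. Its controls again lay above all knockout libraries, while the guides overlapped each other. The changes were -0.55 ± 0.067 and -0.51 ± 0.067 (limma adjusted p = 3.26e-05 and 7.05e-05).

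Rpl21 and Rpl9 fell more with guide 1 than with guide 2. Rpl21, a large subunit protein of archaea and eukaryotes, measured 26.3, 28.2 and 32.3 FPKM in control, 14.7, 15.8 and 14.2 with guide 1 and 21.5, 19.1 and 17.9 with guide 2. The 3 groups did not overlap, and guide 2 lay between the other groups. The changes were -0.91 ± 0.084 and -0.54 ± 0.084 (limma adjusted p = 4.32e-06 and 0.000233). Rpl9, which lies near the factor-binding side of the large subunit, measured 128, 133 and 137 FPKM in control, 83.6, 81.5 and 73.4 with guide 1 and 134, 108 and 103 with guide 2. All guide 1 libraries were below the other libraries, while guide 2 replicate 1 lay among the controls. The fall was called with guide 1 (-0.74 ± 0.090, limma adjusted p = 3.61e-05) and not with guide 2 (-0.21 ± 0.090, limma adjusted p = 0.0574). Rpl6l, a processed copy of Rpl6, measured 60.6, 54.4 and 56.5 FPKM in control, 34.8, 38.7 and 33.1 with guide 1 and 41.6, 38.5 and 35.6 with guide 2. Its knockout libraries were all below its controls, with changes of -0.67 ± 0.073 and -0.56 ± 0.073 (limma adjusted p = 1.51e-05 and 7.26e-05).

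**Figure D2:**
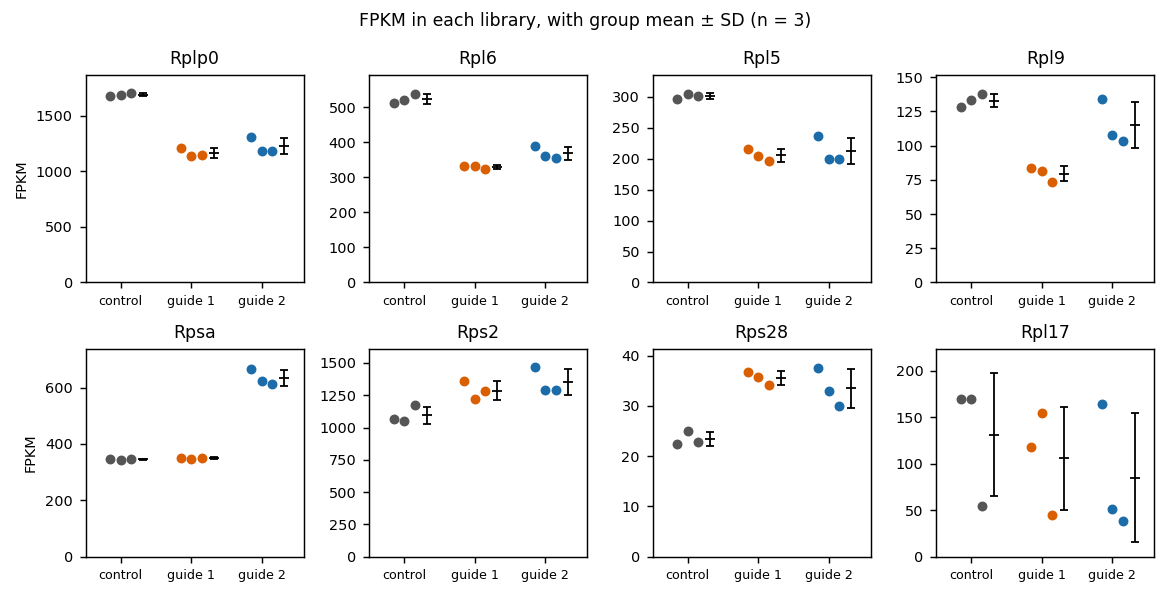
FPKM (vertical axes, from 0) of 8 members in the 9 libraries, 1 point per library, with the group mean ± SD (n = 3) beside the points. Rplp0, Rpl6 and Rpl5 are lower in all 6 knockout libraries, Rpsa is higher in the 3 guide 2 libraries, and Rpl17 spreads widely in every group.

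The other large subunit members called lower for the mean of both guides fell by less. Rpl13 changed by -0.47 with guide 1 and -0.26 with guide 2, Rpl37 by -0.38 and -0.26, and Rpl7 by -0.22 and -0.25. All of these were called with each guide. Rpl27a fell with guide 1 (-0.34 ± 0.088, limma adjusted p = 0.00547) and was at -0.024 ± 0.088 with guide 2 (limma adjusted p = 0.823). Its call for the guides averaged (limma adjusted p = 0.0456) was lost in 11 of the other settings tried, and that of Rpl37 with guide 2 (limma adjusted p = 0.0442) in 12.

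In the small subunit 5 members were called lower for the mean of both guides: Rps14, Rps27a, Rps20, Rps25 and Rps15a. Rps14, a platform protein whose human counterpart lies in the region lost in the 5q- syndrome, measured 184, 195 and 190.5 FPKM in control, 147, 149.6 and 136 with guide 1 and 149, 129 and 118 with guide 2. All knockout libraries were below the controls, with changes of -0.39 ± 0.077 and -0.53 ± 0.077 (limma adjusted p = 0.00103 and 0.000152). Rps27a, made as a fusion with ubiquitin, changed by -0.66 ± 0.083 with guide 1 and -0.24 ± 0.083 with guide 2 (limma adjusted p = 4.27e-05 and 0.0276), and the guide 2 call was lost in 8 other settings. Rps25, needed by several viral internal ribosome entry sites, measured 93.5, 95.9 and 108 FPKM in control, 94.97, 95.7 and 84.3 with guide 1 and 88.7, 69.7 and 66.1 with guide 2. Guide 2 libraries were all below the controls and guide 1 overlapped them. It fell with guide 2 (-0.41 ± 0.10, limma adjusted p = 0.00548) and was at -0.11 ± 0.10 with guide 1 (limma adjusted p = 0.356). Rps20, in the head, changed by -0.24 and -0.44, both called, and the first call (limma adjusted p = 0.048) was lost in 10 other settings. Rps15a changed by -0.27 with guide 1 and was at -0.19 with guide 2, not called, and the guide 1 call was lost in 6 other settings.

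Among members that rose, Rps28 had the highest log2 fold change for the mean of both guides. Rps28, a small protein of the head near the mRNA exit, measured 22.4, 25.1 and 22.9 FPKM in control, 36.8, 35.7 and 34.1 with guide 1 and 37.5, 32.9 and 29.99 with guide 2. Every knockout library was above every control. The changes were 0.58 ± 0.077 and 0.49 ± 0.077 (limma adjusted p = 6.76e-05 and 0.00026). Rps2 measured 1065, 1052 and 1172 FPKM in control, 1359.9, 1220.1 and 1280.1 with guide 1 and 1468, 1294 and 1291 with guide 2. Every knockout library was above every control, while the guides overlapped each other. The changes were 0.23 ± 0.066 and 0.30 ± 0.066 (limma adjusted p = 0.00989 and 0.00236), and with quantile normalization the guide 1 value was -0.092, not called. Of the other small subunit members called higher for the mean of both guides, Rps15, in the head, was at 0.26 with guide 1, called, and 0.16 with guide 2, not called, and with quantile normalization the guide 1 value was 0.093, not called. Rps18, also in the head, was at 0.14 with guide 1, not called, and 0.23 with guide 2, called. This call was lost in 5 other settings and that for the mean of both guides in 7. Rps29, a zinc-binding head protein, measured 25.9, 27.2 and 26.6 FPKM in control, 34.9, 32.04 and 32.5 with guide 1 and 31.9, 27.4 and 25.7 with guide 2. Guide 1 libraries lay above all others, and guide 2 overlapped the control. It rose with guide 1 (0.31 ± 0.072, limma adjusted p = 0.00316) and was at 0.084 ± 0.072 with guide 2 (limma adjusted p = 0.328).

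Rpsa and the Rps3a genes rose with guide 2. Rpsa, the small subunit protein also known as the laminin receptor precursor, measured 347, 344 and 346 FPKM in control, 351, 347 and 352 with guide 1 and 667, 622 and 612 with guide 2. The guide 2 libraries were far above all others, and the control and guide 1 values overlapped. The log2 fold change was 0.87 ± 0.041 with guide 2 (limma adjusted p = 3.46e-08) and 0.018 ± 0.041 with guide 1 (limma adjusted p = 0.711). Rps3a1, at the platform near the mRNA exit, measured 493, 499 and 542 FPKM in control, 590.03, 519 and 523 with guide 1 and 833, 699 and 685 with guide 2. Guide 2 libraries were again above all others. Its processed copies followed at low level. Rps3a2 measured 3.30, 3.11 and 3.82 FPKM in control, 4.02, 3.18 and 3.65 with guide 1 and 5.14, 4.91 and 5.57 with guide 2. Rps3a3 measured 3.13, 3.19 and 3.08 FPKM in control, 4.20, 2.86 and 2.76 with guide 1 and 5.15, 5.43 and 4.67 with guide 2. In both, guide 2 libraries lay above all others. With guide 2 the changes were 0.53 ± 0.080 for Rps3a1, 0.49 ± 0.086 for Rps3a2 and 0.55 ± 0.11 for Rps3a3 (limma adjusted p = 0.000213, 0.000506 and 0.00143), and none of the 3 was called with guide 1. The 3 sequences are near-identical, so reads may be split among them and the values are not independent.

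In the large subunit 4 members were called higher for the mean of both guides: Rpl7l1, Rpl38, Rpl28 and Rpl10a. Rpl7l1, a paralog of Rpl7 that acts in ribosome assembly, measured 41.9, 38.6 and 45.01 FPKM in control, 55.1, 50.3 and 51.8 with guide 1 and 65.5, 59.8 and 62.1 with guide 2. The 3 groups did not overlap, with guide 2 highest. The changes were 0.32 ± 0.062 and 0.57 ± 0.062 (limma adjusted p = 0.00101 and 1.92e-05). Its parent Rpl7 went the other way, at 349, 339 and 340.4 FPKM in control, 304, 296 and 285 with guide 1 and 305, 282 and 277 with guide 2, with every knockout library below every control (limma adjusted p = 0.00196 and 0.000785). Rpl38, which in mouse embryos is needed for translation of Hox mRNAs, measured 42.1, 52.4 and 50.3 FPKM in control, 66.3, 53.8 and 56.1 with guide 1 and 70.6, 54.4 and 52.95 with guide 2. The knockout libraries were all above the controls, but guide 2 replicate 3 was within 1 FPKM of control replicate 2, and neither guide alone was called (0.28 ± 0.12 and 0.29 ± 0.12, limma adjusted p = 0.0645 and 0.0606). Rpl28 was at 0.27 with guide 1, called, and 0.14 with guide 2, not called, and its call for the mean of both guides was lost in 4 other settings. Rpl10a, of the L1 stalk where the used tRNA leaves, was at 0.0041 with guide 1 and 0.21 with guide 2, where it was called, and its call for the guides averaged (limma adjusted p = 0.047) was lost in 9 other settings.

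For the other 25 members the mean of both guides was not called. The acidic stalk proteins Rplp1 and Rplp2, partners of Rplp0, were among them. Rplp1 measured 846, 882 and 977 FPKM in control, 1134, 979.9 and 943 with guide 1 and 1247, 954 and 910.00 with guide 2, and Rplp2 117, 124 and 140.5, 141, 128 and 119 and 161, 121 and 119.96. The groups overlapped in both, with replicate 1 highest in each knockout. Their changes were 0.18 ± 0.099 and 0.049 ± 0.10 for the guides averaged (limma adjusted p = 0.111 and 0.641), while Rplp0 was at -0.50 ± 0.043. Rpl11, the partner of Rpl5 in the 5S particle, measured 130.1, 137 and 146 FPKM in control, 142, 137 and 125 with guide 1 and 151, 131 and 126 with guide 2. These values overlapped throughout, with a change of -0.025 ± 0.065 (limma adjusted p = 0.718) against -0.53 ± 0.058 for Rpl5.

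The paralog pair Rpl22 and Rpl22l1 stayed out of the calls for the mean of both guides. Rpl22, which also binds small viral RNAs, measured 44.9, 44.5 and 42.9 FPKM in control, 43.1, 42.7 and 39.7 with guide 1 and 46.9, 40.5 and 41.95 with guide 2, and the groups overlapped. Rpl22l1 measured 7.61, 8.63 and 9.78 FPKM in control, 7.09, 6.64 and 6.47 with guide 1 and 9.63, 8.26 and 7.46 with guide 2. All guide 1 libraries were below all others, and guide 2 overlapped the control. Rpl22l1 fell with guide 1 (-0.32 ± 0.097, limma adjusted p = 0.0141) and was at -0.034 ± 0.097 with guide 2, while Rpl22 was at -0.075 ± 0.059 and -0.034 ± 0.059. Rpl30, which in yeast controls the splicing of its own transcript, measured 27.6, 31.2 and 47.8 FPKM in control, 42.05, 38.4 and 34.9 with guide 1 and 76.4, 48.01 and 44.7 with guide 2. Guide 2 replicate 1 was far above the rest and control replicate 3 lay above all guide 1 libraries, so the groups overlapped. Its rise with guide 2 (0.65 ± 0.22, limma adjusted p = 0.0236) was lost in 4 other settings, without guide 2 replicate 1, without control replicate 1, without control replicate 2 and with no filter on low values.

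Most of the remaining members belong to the large subunit, several of them around the exit tunnel or on the surface, and none was called for the mean of both guides. The values were -0.10 for Rpl35, -0.13 for Rpl31, -0.14 for Rpl15, -0.084 for Rpl18, -0.13 for Rpl24, which forms a bridge between the subunits, and -0.17 for Rpl37a. On the other side of 0 were Rpl23 (0.16), which can also bind Mdm2, Rpl35a (0.22), Rpl36 (0.27) and the pseudogene Rpl32l (0.15). Rpl32l measured 1.02, 0.737 and 0.874 FPKM in control, 1.33, 0.567 and 0.974 with guide 1 and 1.45, 1.34 and 0.972 with guide 2, at the level limit in all groups, and the groups overlapped. In the small subunit Rps21 was at -0.19, Rps13 at -0.15, Rps19, the gene first tied to Diamond-Blackfan anaemia in humans, at -0.14, Rps7 at 0.021, Rps9 at 0.053 and Rps10 at 0.073. Rps12, at the beak of the head, was at 0.17 and was called with guide 2 (0.23, limma adjusted p = 0.0462), a call lost in 8 other settings. Rps27 was at 0.22, and these small subunit members were not called for the mean of both guides either.

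Rpl17, which lines the exit tunnel, had the widest spread of all members within every group, and it was picked out after its values were seen. It measured 169.9, 169 and 54.7 FPKM in control, 118, 154 and 45.3 with guide 1 and 165, 51.4 and 38.7 with guide 2. Replicate 3 was low in each group, and replicate 2 was low as well with guide 2. The coefficient of variation was 50.5% in control, 52.4% with guide 1 and 81.6% with guide 2, so its change of -0.53 ± 0.54 for the mean of both guides was not detectable against that spread (limma adjusted p = 0.367).

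Position in the genome is a feature that the rule did not use, and many members changed in the direction of the other genes on their chromosome. The 5 members on chromosome 5 (Rpl21, Rpl6, Rpl5, Rplp0 and Rpl9) were all called lower for the mean of both guides. Among the other 576 tested genes of that chromosome 85.6% were called lower and 6.77% higher, with a median log2 fold change of -0.53 with guide 1 and -0.31 with guide 2. In single libraries the median of these other genes, relative to the control mean, was -0.52, -0.54 and -0.52 with guide 1 and -0.34, -0.30 and -0.30 with guide 2, against 0.017, -0.011 and -0.00024 in control. Of the 20 chromosomes compared, chromosome 5 had the lowest median for the mean of both guides.

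On chromosome 17, of 7 members, 5 were called higher (Rps28, Rpl7l1, Rps2, Rps18 and Rpl10a) and 0 lower, with Rpl36 and Rps10 not called. The other 331 tested genes there had a median of 0.24 with guide 1 and 0.18 with guide 2, and 64.0% of them were called higher. Chromosome 15 had the highest median, 0.40 for the mean of both guides with 80.1% of 341 genes called higher, yet of its 2 members Rpl37 fell (-0.32) and Rpl30 was not called. Several members stood apart from the genes around them. The median of the other genes of its own chromosome was subtracted from each member's change for the mean of both guides. Rps27a (chromosome 11) was then at -0.50, Rpl37 at -0.72, Rps25 (chromosome 9) at -0.44 and the pseudogene Rpl6l (chromosome 10) at -0.69. Rpl6l is a copy of Rpl6, which lies on chromosome 5, so reads may be split between them and its value is not independent. Rpsa (chromosome 9) was still at 0.72 with guide 2, Rps3a1 (chromosome 3) at 0.29 with guide 2 and Rps28 at 0.31 for the mean of both guides. Others were nearer to the median of their chromosome. For the mean of both guides Rplp0 was at -0.078, Rpl9 at -0.055 and Rps3a1 at 0.058. The SD of the log2 fold change over the 53 members was 0.31 as measured and 0.23 after this subtraction for the mean of both guides. The part of chromosome position in the members' changes was not tested.

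**Figure D3:**
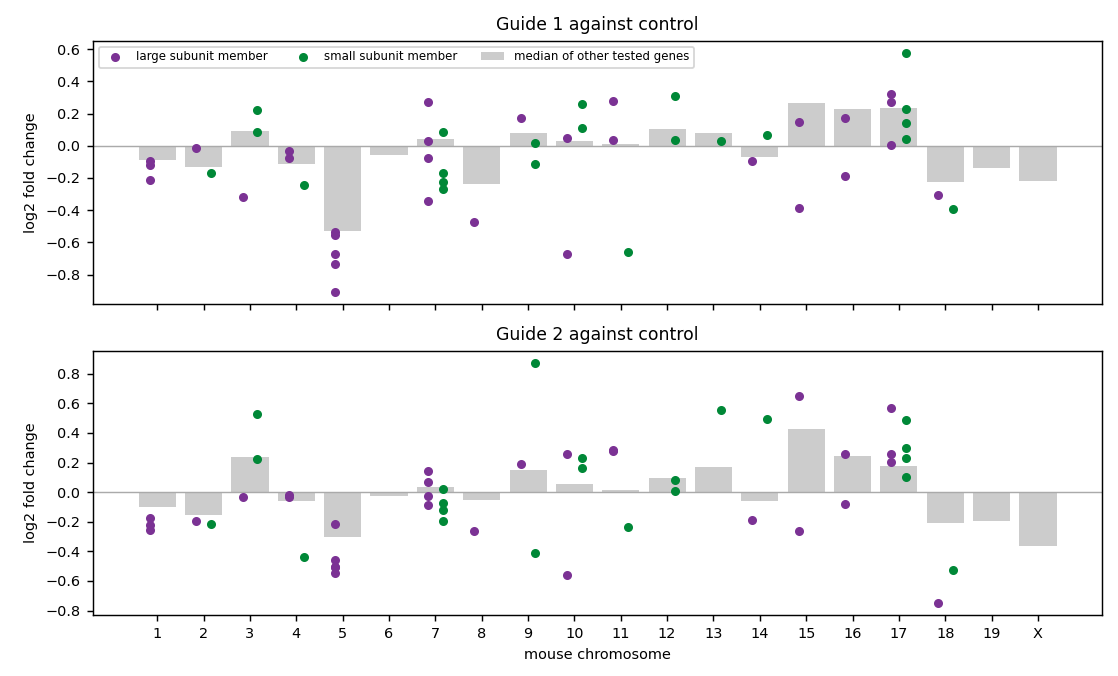
Log2 fold change against control of each member (points, coloured by subunit) at its mouse chromosome, guide 1 above and guide 2 below, over bars for the median of the other tested genes of that chromosome. The 5 large subunit members on chromosome 5 lie below 0 with the bar, and the members on chromosome 17 lie above 0 with both guides.

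Among the members with a row, the large subunit's mRNAs were lower against the small subunit's in the knockouts. Rows exist for 27 of 46 large and 20 of 31 small core genes, so the balance of the whole subunits was not measured. Both guides' means lie on the same side of the control for all 53 members, so agreement between the guides is not a result here. Of the large subunit 4 members were called higher and 10 lower for the mean of both guides (median -0.13), and of the small subunit 9 higher and 5 lower (median 0.12). Of all tested genes 37.8% were higher and 43.3% lower (median -0.084). The ratio of summed large to summed small subunit FPKM was 1.56, 1.57 and 1.53 in the control libraries, 1.27, 1.27 and 1.22 with guide 1 and 1.22, 1.16 and 1.16 with guide 2. The group means were 1.55 ± 0.022 (SD, n = 3) in control, 1.26 ± 0.028 with guide 1 and 1.18 ± 0.031 with guide 2, and no knockout library reached the control range. On the log2 scale, where each member counts alike, the mean of the large minus that of the small subunit was 0.28 to 0.31 in control, 0.093 to 0.16 with guide 1 and 0.079 to 0.19 with guide 2. The groups stayed apart in both measures without Rplp0, without the 4 pseudogenes, without Rpl17 and without the 3 highest members. They also did so without the members that have a row named as a pseudogene. That last set still held Rpl6 with its copy Rpl6l, and Rps3a1 with its copies Rps3a2 and Rps3a3.

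The size of the difference between the subunits changed when members were left out by chromosome. All 5 members on chromosome 5 belong to the large subunit, and of the 7 on chromosome 17 4 belong to the small. Without the members on chromosome 5 the knockouts were still below the controls in both measures. The log2 difference was then 0.064 to 0.088 in control and at most 0.049 with guide 1 and 0.061 with guide 2, and the ratio 0.947 to 0.964 against at most 0.904 and 0.861. Without the members of both chromosomes the log2 difference overlapped between the groups, at 0.16 to 0.21 in control, 0.090 to 0.18 with guide 1 and 0.012 to 0.18 with guide 2. The ratio of sums did not, at 1.22 to 1.23, 1.12 to 1.19 and 0.99 to 1.09. After subtracting chromosome medians, the subunits' median changes for the mean of both guides were -0.049 (large) and -0.024 (small). With guide 2 they were -0.056 and -0.012, while with guide 1 the order was reversed, at -0.029 and -0.053. The log2 difference relative to the control mean was then -0.027, -0.031 and -0.089 with guide 1, -0.033, -0.11 and -0.15 with guide 2, and 0.014, 0.00012 and -0.015 in control. In this difference of means the knockout values were still below the controls, with guide 1 replicate 1 nearest to them.

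**Figure D4:**
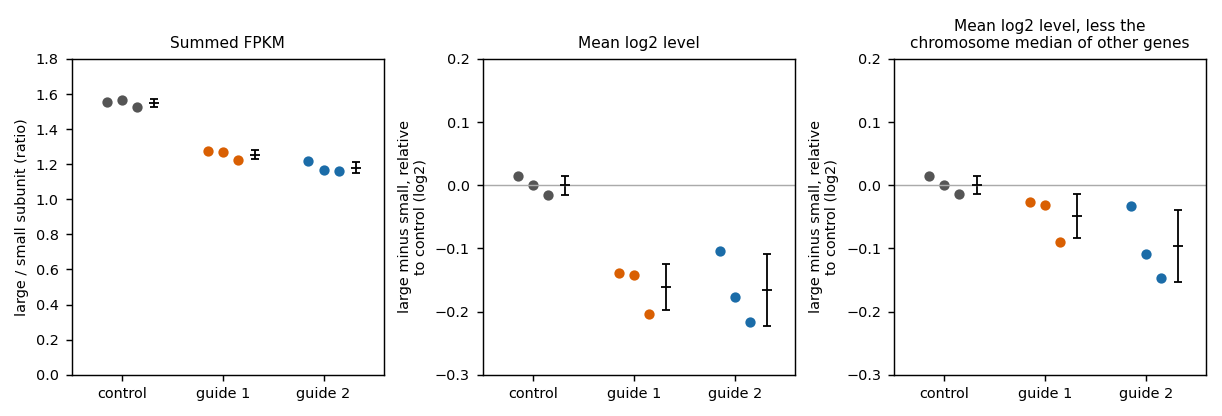
Large against small subunit in each of the 9 libraries (points; cross bars, group mean ± SD, n = 3), as the ratio of summed FPKM, as the difference of mean log2 levels relative to the control mean, and as that difference after subtracting the chromosome median of other genes. Knockout libraries lie below the controls in all 3 panels, by the least in the right one.

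Members differed between the knockouts mostly in 1 direction. In guide 2 against guide 1, 13 members were called higher and 2 lower (limma adjusted p under 0.05), against 54.5% of all tested genes, 31.2% higher and 23.3% lower. The highest value was that of Rpsa, at 0.85 ± 0.041 (limma adjusted p = 7.53e-08). Rps3a3 followed at 0.52 ± 0.11, Rpl9 at 0.52 ± 0.090 and Rps3a1 at 0.44 ± 0.080 (limma adjusted p = 0.00265, 0.000684 and 0.000973). The 2 lower members were Rps25, at -0.30 ± 0.10, and Rps29, at -0.22 ± 0.072 (limma adjusted p = 0.0328 and 0.0227). The 13 higher include Rps3a1, Rps3a2 and Rps3a3, whose values are not independent. They also include Rpl6, Rpl21 and Rpl9 on chromosome 5 and Rpl13 on chromosome 8. The median of the other genes there was 0.18 on chromosome 5 and 0.15 on chromosome 8 in this comparison. Without guide 2 replicate 1 the counts were 12 higher and 8 lower, so the 13 to 2 split rests in part on that library, and without guide 2 replicate 2, guide 2 replicate 3 or guide 1 replicate 1 there were 0 lower.

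Members rose and fell together from library to library within a group. In guide 2 replicate 1, 50 of the 53 were the highest of their group, where 29.6% of all tested genes were, and their median was 0.18 above the group mean on the log2 scale. In guide 2 replicate 3, 46 were the lowest, against 26.7% of all tested genes, with a median of -0.13. In control replicate 3, 39 were the highest (median 0.084), against 35.4% of all tested genes. In guide 1 replicate 1, 43 were the highest (median 0.074), against 36.4%. The other tested genes with transcripts under 800 bases moved in the same direction in guide 2 replicate 1 (median 0.11), and those of 3000 bases or more in the other (-0.061). The members' own median length was 792 bases, and the part of length in this pattern was not tested. The median coefficient of variation over members was 7.38% in control, 5.82% with guide 1 and 12.1% with guide 2, against 6.41%, 5.83% and 6.19% over all tested genes.

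Pseudogene copies can take reads from ribosomal protein genes. Of 133 rows named as ribosomal protein pseudogenes 60 were tested, and 48 of these had a parent among the members. A pseudogene and its parent were both called for the mean of both guides in 18 pairs, and in all 18 the direction was the same. In 3 cases the pseudogene row was above its parent: Rps10-ps2 with a mean of 403 FPKM against 136 for Rps10, Rpl21-ps15 with 291 against 21.1 for Rpl21, and Rpl9-ps4 with 127 against 109 for Rpl9. Summed with its pseudogene rows, Rpl21 was at 456 FPKM in control, 234 with guide 1 and 321 with guide 2, and Rpl9 at 416, 239 and 356, so both kept the order of the gene alone. Among the 26 members with no tested row named as a pseudogene 12 were called for the mean of both guides, against 81.1% of all tested genes. These 26 still include Rpl6 and Rps3a1 beside their copies Rpl6l, Rps3a2 and Rps3a3, and the pseudogene Rpl32l. The sources used here do not say how reads that match several copies were assigned, so the levels of these families are uncertain. Exons of Rps28 overlap those of Kank3 on the other strand, those of Rps2 overlap Snhg9, and those of Rpl5 overlap Fam69a. Rps18, Rpl28, Rpl10a, Rpl30, Rpl22l1, Rps27a and Rps25 also overlap a gene of the other strand, as do Rps10, Rpl31, Rpl18, Rpl15 and Rpl35. The use of strand in counting is not stated, so reads of such pairs may not have been kept apart. On the same strand, Rps10 overlaps RPS10-NUDT3 and Rpl24 overlaps Gm28037.

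Genes that act beside the ribosomal proteins were counted from lists. Among other mRNAs with a 5' pyrimidine tract, 14 were tested and 7 were called higher and 6 lower for the mean of both guides (median 0.087, against -0.084 over all tested genes). Eif4b, a helper of the initiation helicase, changed by 0.53, Pabpc1, the poly(A) binding protein, by 0.52 and Eif3h by 0.51. Of 22 initiation factors 11 were higher and 9 lower (median 0.045), with Eif2b2, a subunit of the exchange factor for eIF2, at 0.73, Eif4h at -0.55 and Eif1, which guards start codon choice, at 0.50. Of 4 tested genes on the list for elongation and release, not all of them such factors by function, 3 were higher and 0 lower. The 3 were Eef1e1 (0.37), the release factor Gspt1 (0.26) and Hbs1l (0.17). These 3 were called with guide 2 (0.69, 0.42 and 0.24) and not with guide 1 (0.055, 0.10 and 0.11), where 0 of the 4 were higher and 1 lower. For the mean of both guides, 37.8% of all tested genes were called higher and 43.3% lower, and with guide 1 30.2% and 37.9%.

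In the mTOR list 14 of 28 genes were tested, and 4 were higher and 8 lower for the mean of both guides (median -0.12). The shares over all tested genes were 37.8% higher and 43.3% lower, here and for the lists below. The arginine sensor Castor1 was at 1.12, its relative Castor2 at -0.98 and Ddit4, an inhibitor of mTORC1 induced by stress, at 0.96. Of 10 tested genes, from 26 listed, that escort ribosomal proteins or export subunits 7 were higher and 3 lower (median 0.25). With guide 1 alone 2 were higher and 3 lower (median 0.037), and with guide 2 alone 7 and 1 (median 0.36). Of all tested genes 30.2% were higher and 37.9% lower with guide 1, and 31.9% and 33.5% with guide 2. The export release GTPase Lsg1, called with each guide, was at 0.42 for their mean. Gtpbp4 was at 0.50 with guide 2, called, and 0.11 with guide 1, not called, and Rpf2, which loads the 5S particle, at 0.53, called, and 0.055, not called. Of 7 tested p53 genes, from 12 listed, 5 were higher and 2 lower (median 0.39). Trp53 mRNA was at 0.96 and Ccng1 at -0.59, both called with each guide. Bbc3, a p53 target that promotes apoptosis, was at 1.32 with guide 1, called, and 0.26 with guide 2, not called, with a difference of -1.06 between guide 2 and guide 1 (limma adjusted p = 1.83e-05). Trp53 measured 39.8, 37.7 and 43.4 FPKM in control, 64.3, 64.4 and 68.8 with guide 1 and 91.9, 96.2 and 96.6 with guide 2. The 3 groups did not overlap. Of 37 mitochondrial ribosomal protein genes, which build a separate ribosome, 13 were higher and 18 lower (median -0.10), near the 37.8% and 43.3% of all tested genes.

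The pyrimidine run occurred in members of both directions and in those not called. Of the members with a promoter window, 4 of 10 called higher, 5 of 9 called lower and 17 of 21 not called held a run of at least 8, against 33.6% of all genes with a window. CTTTCC was in 3 of 10, 0 of 9 and 8 of 21, against 4.49%.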

How the data were processed

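Per the labels' protocols, poly(A) RNA was made into 9 stranded libraries and read from both ends. The authors deposited FPKM values per gene, and the tools in the submitters' processing notes are StringTie, HISAT2, FastQC and cutadapt. Build, annotation and strand use in counting were not given in the sources used here. Symbols that occur more than once (174 of 15620 rows) were left out. Genes with a mean of at least 1 FPKM were tested on log2(FPKM + 1), which understates the change of low genes, with limma 3.58.1 (R 4.3.3) in 1 fit over 3 groups of 3, Benjamini-Hochberg adjusted over 6965 genes, two-sided, checked on simulated data. Chromosome and length came from GENCODE vM21 by symbol, which placed all members and 6645 tested genes on 1 chromosome. The members and the lists were chosen with earlier results of these data known. Named with values in every library were the 6 largest calls in each direction for the mean of both guides, the 3 largest per guide and between guides, paralogs with their parents, the 3 highest and 3 lowest members, and the stalk and 5S particle genes. Alternatives covered pseudocount, filter, normalization, variance model, replicate block and each library left out. FPKM gives no depth, so no counting interval is given. Same-numbered libraries were not taken as pairs.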

Additional observations from a re-analysis of the deposited data

Results flagged for a closer look

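For 15 members guide 2 differed from guide 1 by the test of that difference itself (limma adjusted p under 0.05). Lower with guide 2 were Rps25 (-0.30 on the log2 scale) and Rps29 (-0.22). Higher with guide 2 were the large subunit members Rpl6 (0.16), Rpl10a (0.20), Rpl13 (0.21), Rpl7l1 (0.25), Rpl22l1 (0.28), Rpl27a (0.32), Rpl21 (0.37) and Rpl9 (0.52). In the small subunit Rps27a (0.42), Rps3a2 (0.43), Rps3a1 (0.44), Rps3a3 (0.52) and Rpsa (0.85) were higher with guide 2. The Rps3a values are not independent of one another. For Rpl22l1 this call was lost in 8 other settings, for Rps25 in 5 and for Rps29 in 4.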

How the results depend on the processing

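The counts of members called kept within 1.5 times of 21 (guide 1), 23 (guide 2), 28 (mean of both guides) and 15 (guide 2 against guide 1) under every alternative run but 1, which was added after seeing the data. That one left the 26 members with no tested row named as a pseudogene, of which 10, 11, 12 and 7 were called. Its smaller count comes with the fewer genes. Leaving out each library in turn gave 19 to 25, 18 to 28, 23 to 35 and 12 to 20. With no filter on low values the counts were 16, 18, 20 and 12. Of the named values, that of Rps2 with guide 1 changed sign, to -0.092 with quantile normalization, and the cause was not tested. A replicate block gave 21, 21, 26 and 14 calls. The pairing was checked through deviations from the group means, whose correlation between same-numbered libraries ran from -0.11 to 0.24, so the numbers are not shown to pair the libraries. With quantile normalization the guide 2 calls split 15 higher to 12 lower. A filter at 5 FPKM left 50 members. For the mean of both guides, the fit on only the libraries compared was not run, since it uses all 9.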
